A study of Sus scrofa with 220 samples.

Results

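A set of 4 genes of fibroblast growth factor (FGF) signalling was followed through the first lineages of the pig embryo: the ligand FGF19 (ENSSSCG00000012871), the receptors FGFR2 (ENSSSCG00000010698) and FGFR4 (ENSSSCG00000014047), and the transcription factor ETV1 (ENSSSCG00000024591). They were chosen by symbol, as the entries of the gene tables whose Ensembl identifier carries one of these names, and made up 4 of 22840 entries. All 4 passed the filter on low values. FGFs bind receptor tyrosine kinases at the cell surface and signal through RAS, MEK and ERK, which switches on ETS-family factors such as ETV1, ETV4 and ETV5 together with feedback inhibitors of the SPRY and DUSP families. FGF19 belongs to the endocrine FGFs, which bind heparan sulphate weakly and signal mainly through FGFR4 with the co-receptor beta-klotho (KLB). In the mouse blastocyst, FGF4 from the future epiblast acts on FGFR1 and FGFR2 of neighbouring cells and directs them to the hypoblast.

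The data were Smart-seq2 libraries of 220 single cells from 28 embryos, with full-length cDNA read from each cell. Embryos were flushed after artificial insemination from the uteri of crossbred Large White and Landrace sows, and no treatment was applied. The study inferred sex from Y-chromosome transcripts, and the sexes were unevenly spread over the labels. LB HYPO cells were mostly female and all Sph HYPO cells were male. Sex was not included in the fits here, so it cannot be told apart from label where the 2 go together. The 7 cell type labels were morula (M, 47 cells of 8 embryos), inner cell mass and trophectoderm of the early blastocyst (EB ICM, 24 cells of 7 embryos, and EB TE, 28 cells of 10), epiblast and hypoblast of the late blastocyst (LB EPI, 25 cells of 4 embryos, and LB HYPO, 36 cells of 5), and the same 2 lineages of the spherical embryo (Sph EPI, 48 cells of 4 embryos, and Sph HYPO, 12 cells of 3). Morulae and early blastocysts were dissociated whole, late blastocysts lost their trophectoderm by immunosurgery, and the epiblast and hypoblast of spherical embryos were isolated by hand. The study grouped its cells by clustering on all expressed genes and by known markers, so the labels within early and late blastocysts are not independent of expression. Letters in the cell identifiers named the embryos, except for 1 morula cell, which went into no embryo sum.

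Each cell held 1012604 to 5696373 counts. A cell was called positive for a gene when its TPM (a level scaled for gene length and for the depth of the cell) was above 1. For tests the counts were added over the cells of 1 lineage in 1 embryo. This gave 41 embryo sums of 1342788 to 47016945 counts, 6 of which held 1 cell, and their levels are given as log2(CPM + 1), where CPM scales the counts of a sum to its depth. Lineages were compared over embryo sums with edgeR's quasi-likelihood test, called at an adjusted p under 0.05 across the 14721 genes tested. Several comparisons share a lineage and are then not independent of each other. Intervals of shares are exact 95% binomial intervals and cover counting error only. For a share of 0 the upper limit given is 3 over the number of cells, which is lower than the exact limit.

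The hypoblast and epiblast markers were higher in the late lineages of their own label. Summed TPM of the hypoblast markers ran from 789 to 2967 in LB HYPO embryos against 11.2 to 73.9 in LB EPI, and from 1190 to 3402 in Sph HYPO against 11 to 25.3 in Sph EPI. Epiblast markers ran from 430 to 1389 in LB EPI against 28.3 to 117 in LB HYPO, but still reached 272 to 747 in Sph HYPO, beside 791 to 1252 in Sph EPI. Summed trophectoderm markers were not confined to EB TE: they ran from 17370 to 43076 in Sph HYPO and from 2808 to 9022 in Sph EPI. These sums do not stand for all 8 markers. GATA2 and CDX2 were above 1 TPM in no cell of either spherical group, while each marker was found in some EB TE cells. In the trophectoderm 2 cells stood apart. Of the 28 EB TE cells, 26 had 18159 TPM or more of trophectoderm markers, while the lone cell of embryo E6-ER had 175 and 1 cell of embryo AB had 2106. Results that rest on EB TE are given with and without these 2 cells, an alternative chosen after the data were seen.

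FGF19 was found mainly in the epiblast. It was above 1 TPM in 22 of 25 LB EPI cells (88.0%, 95% interval 68.8 to 97.5) and 43 of 48 Sph EPI cells (89.6%, 77.3 to 96.5), with mean levels of 552 and 289 TPM. It was positive in 0 of 47 morula cells (a count of 0 allows up to 6.38%), in 3 of 24 EB ICM cells (12.5%), 1 of 28 EB TE cells (3.57%), 6 of 36 LB HYPO cells (16.7%, 6.37 to 32.8) and 1 of 12 Sph HYPO cells (8.33%). The levels differed among the 7 labels with an adjusted p of 2.07e-07, in a test that called 37.7% of all genes. FGF19 transcript was thus found in most epiblast cells from the late blastocyst on and in few cells of any other label. Within LB EPI the share ran from 50% in embryo AN, with 2 cells, to 100% in AO and AQ.

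**Figure D1:**
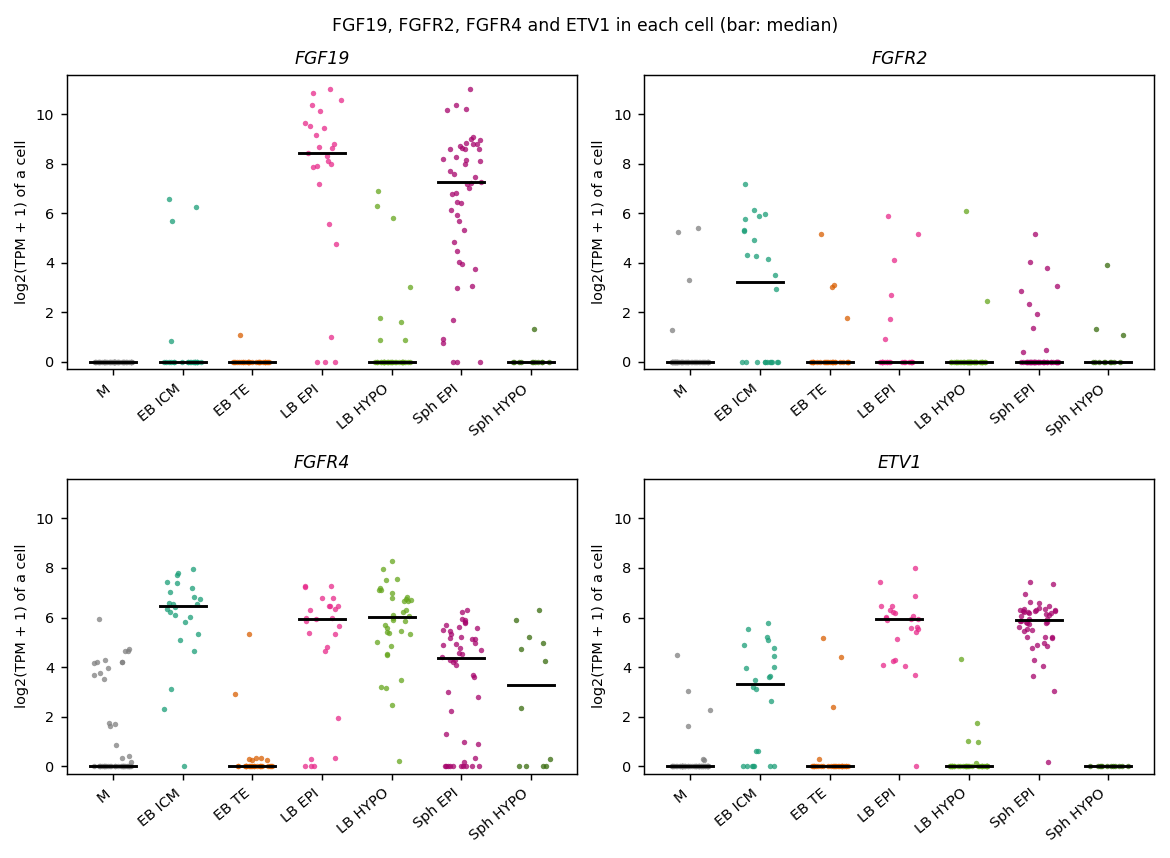
Level of each gene in each of the 220 cells as log2(TPM + 1), by cell type label, with 1 point per cell and a bar at the median. FGF19 and ETV1 sit high in LB EPI and Sph EPI and near 0 in both hypoblast groups, FGFR4 is above 1 TPM in 95.8% of EB ICM cells and in 58.3% to 97.2% of the cells of the 4 later groups, and FGFR2 is above 1 TPM in 54.2% of EB ICM cells and in 25% or fewer of every other group.

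Within the epiblast, FGF19 stood at a log2(CPM + 1) of 5.47, 6.76, 7.46 and 8.39 in the LB EPI sums of embryos AN, AO, AP and AQ. In Sph EPI it stood at 6.18, 6.19, 5.52 and 7.94 in embryos C, D, E and F. All 8 epiblast sums were above every other sum in the series. The 2 stages overlapped, with a log2 fold change of LB EPI over Sph EPI of 0.68 ± 0.66 (SE, adjusted p = 0.760, where 0.156% of genes were called and 8.1% did not overlap).

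In the late blastocyst hypoblast FGF19 read 2.05 in embryo AM and 2.19 in AO and was at 0 counts in AL, AN and AP. LB EPI exceeded LB HYPO by a log2 fold change of 6.73 ± 1.41 (SE, n = 4 and 5, adjusted p = 0.0271, 107-fold), and the sums did not overlap. In this comparison 1.92% of genes were called and 8.58% did not overlap. The call rested on few embryos: leaving out LB EPI embryo AP or AQ or LB HYPO embryo AM took the adjusted p to between 0.0528 and 0.110, and with the embryo as a block the log2 fold change was 8.31 with an adjusted p of 0.182. Within the first and the last 4 of the 8 library pools it was 6.85 (adjusted p = 0.113) and 6.13 (0.351).

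In spherical embryos FGF19 was again divided between the lineages. Sph EPI held 14382 FGF19 counts and Sph HYPO 1, a CPM ratio of 3174 with a 95% counting interval of 570 to 125385 (adjusted p = 0.00688). The groups did not overlap, in a comparison where 1.13% of genes were called and 15.4% did not overlap. The call held in both sets of pools, with adjusted p of 0.0201 and 0.0485, and with the embryo as a block (0.0347), but not in a fit on all 7 labels (0.0941). Epiblast over hypoblast was not shown to differ between the stages (difference of the log2 fold changes, Sph minus LB, 4.39 ± 2.06 SE, adjusted p = 0.448, 0.0408% of genes called).

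The inner cell mass gave a split picture. FGF19 reached 3.59 in embryo AC (119 counts) and 4.21 in embryo AI (38 counts, 1 cell), was at 1 count in AA and at 0 in the other 4. ICM over LB EPI came to a log2 fold change of -5.39 ± 1.71 (SE, adjusted p = 0.110) with no overlap, where 2.91% of genes were called and 6.13% did not overlap. Against the morula, at 0 counts, the 158 ICM counts were at least 99.5-fold higher (adjusted p = 0.0841). Against EB TE, at 1 count, the CPM ratio was 175 (31 to 6962, adjusted p = 0.113).

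FGFR4, the main receptor for FGF19, had a broader pattern than its ligand. It was positive in 16 of 47 morula cells (34%, 20.9 to 49.3), in 23 of 24 EB ICM cells (95.8%, 78.9 to 99.9) and in 2 of 28 EB TE cells (7.14%, 0.877 to 23.5). In the late blastocyst 20 of 25 EPI cells (80.0%) and 35 of 36 HYPO cells (97.2%, 85.5 to 99.9) were positive, and in spherical embryos 34 of 48 EPI cells (70.8%) and 7 of 12 HYPO cells (58.3%). Mean levels were 96.7 TPM in EB ICM, 82.5 in LB HYPO, 60.9 in LB EPI, 23.1 in Sph EPI and 20.8 in Sph HYPO, against 5.96 in M and 1.68 in EB TE. The 7 labels differed (adjusted p = 0.00157), although within the last 4 pools the adjusted p was 0.0709.

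On the scale of embryo sums, FGFR4 had a lowest, median and highest log2(CPM + 1) of 0.21, 4.03 and 4.83 in the 8 morulae. The corresponding values were 5.41, 7.51 and 8.59 in the 7 EB ICM sums and 0, 0.07 and 4.05 in the 10 EB TE sums. ICM was thus above every morula and every trophectoderm sum.

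FGFR4 rose from morula to ICM: the log2 fold change of M over EB ICM was -3.91 ± 0.71 (SE, adjusted p = 0.00428), that is 15.0-fold higher in ICM, where 2.45% of genes were called and 1.62% did not overlap. Within the first and last pools the values were -3.96 (adjusted p = 0.157) and -3.63 (0.176). ICM exceeded trophectoderm by 6.18 ± 1.33 (SE, adjusted p = 0.0295, 72.7-fold), in a comparison that called 0.754% of genes and found 0.360% not overlapping. Without the 2 EB TE cells poor in trophectoderm markers the log2 fold change was 6.57 (adjusted p = 0.0154), and with the embryo as a block 10.91 (0.000681). The block leaves the TE of AB, AH and E6-ER out of the contrast, because these embryos have no ICM sum. The adjusted p was 0.0503 to 0.0724 when any of 7 embryos was left out (ICM AC, AF or AG, TE AA, AC, AD or AG), and it was 0.000117 and 0.214 in the first and last pools. Of the 326 FGFR4 counts of EB TE, 275 came from embryo AB and 48 from the E6-ER cell. Morula and trophectoderm did not pass the test (2.31 ± 1.44 SE, adjusted p = 0.442, 0.808% of genes called and 0.394% not overlapping).

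After the ICM stage no further change of FGFR4 passed the test. LB EPI embryos AN, AO, AP and AQ had 5.35, 6.65, 6.96 and 7.39, and LB HYPO embryos AL, AM, AN, AO and AP had 7.76, 7.86, 7.62, 7.70 and 4.98. The groups overlapped. ICM against LB EPI gave 0.79 ± 0.58 (SE, adjusted p = 0.501), ICM against LB HYPO 0.12 ± 0.55 (adjusted p = 1, where 2.1% of genes were called), and LB EPI against LB HYPO -0.77 ± 0.61 (adjusted p = 0.563).

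In spherical embryos FGFR4 read 5.87, 5.92, 3.08 and 6.10 in Sph EPI of C, D, E and F. In Sph HYPO it read 0.34 in C (1 count), 0 in E and 6.44 in F (1411 counts), so that the group divided. Embryo F supplied 8 of the 12 Sph HYPO cells, of which 7 were positive, and its sum held 19120689 counts against 3848923 in C and 3079243 in E. LB HYPO over Sph HYPO came to 2.55 ± 1.53 (SE, adjusted p = 0.530, where 0.163% of genes were called and 5.93% did not overlap). Without embryo F, which leaves 4 Sph HYPO cells, it came to 10.08 with an adjusted p of 0.0126. Sph EPI over Sph HYPO came to 0.74 ± 1.78 (SE, adjusted p = 0.916), and LB EPI over Sph EPI to 1.24 ± 0.68 (adjusted p = 0.451).

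FGFR2, which binds many paracrine FGFs, was seldom detected outside the inner cell mass. It was positive in 13 of 24 EB ICM cells (54.2%, 32.8 to 74.4), with a mean of 23.6 TPM. The other labels ran from 2 of 36 cells in LB HYPO (5.56%) to 3 of 12 in Sph HYPO (25%), with means between 1.4 and 4.74 TPM.

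The ICM embryos divided for FGFR2. Its log2(CPM + 1) was 6.03 in AA, 5.72 in AE, 4.69 in AF and 4.21 in AG, and 0 in AC, AD and AI. FGF19 was at 119 counts in AC and 38 in AI, which had no FGFR2, at 1 count in AA, which had the most FGFR2 (924 counts), and at 0 in the other 4, AD included. None of the 24 ICM cells was above 1 TPM for both, where the 2 shares multiplied over all 24 cells give 1.62. AD and AI are sums of 1 cell.

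With this spread between embryos FGFR2 passed the test in no comparison. The log2 fold change was -3.59 ± 1.82 (SE, adjusted p = 0.252) for M over ICM, 3.52 ± 1.80 (adjusted p = 0.315) for ICM over TE and 4.66 ± 2.34 (adjusted p = 0.257) for ICM over LB HYPO. In LB EPI the level was 0 in AN and AO, 4.76 in AP and 1.32 in AQ. In LB HYPO only AO had counts (2.39), and in Sph EPI the levels were 0.60, 2.53, 3.39 and 0.53. Over the 7 labels the test gave an adjusted p of 0.349.

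**Figure D2:**
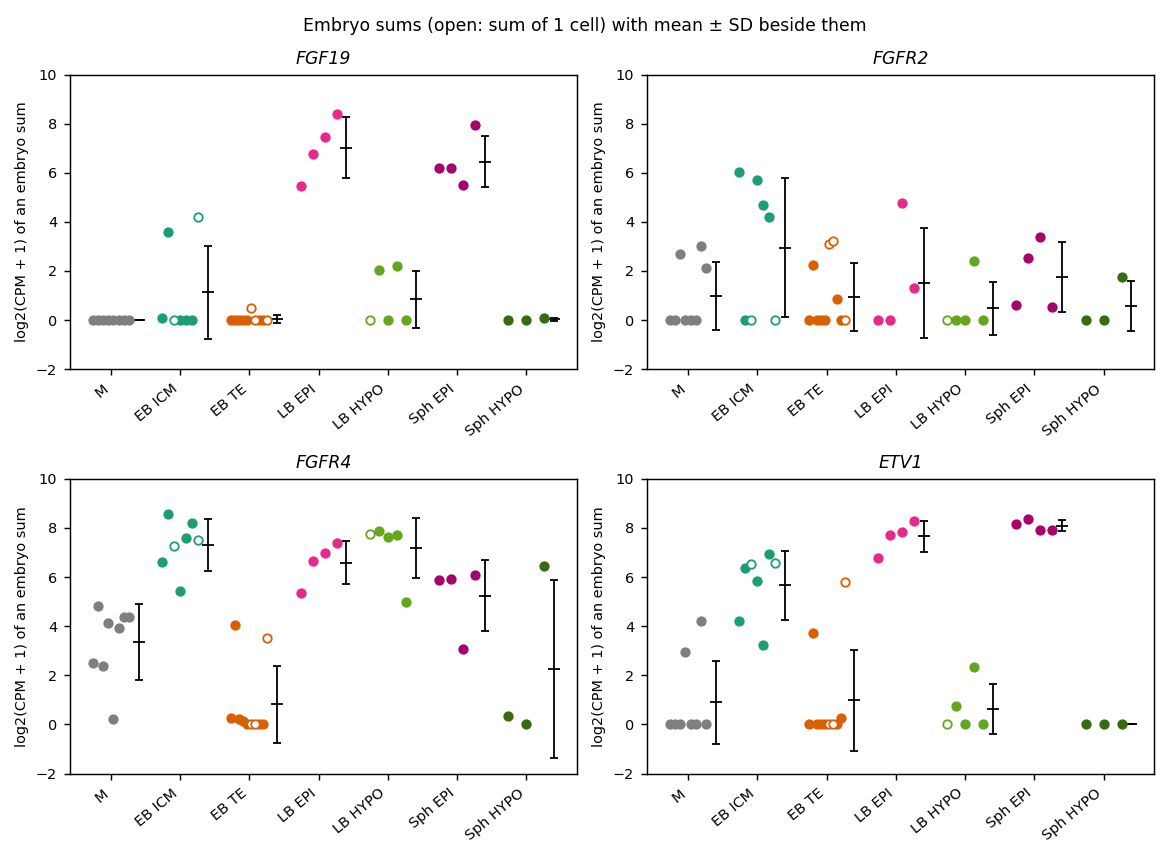
Log2(CPM + 1) of each embryo sum by cell type label, with open points for sums of 1 cell and the mean ± SD beside each group. The FGF19 sums of LB EPI and Sph EPI, from 5.47 to 8.39, lie above all others, and FGFR4 in Sph HYPO divides into 1 sum at 6.44 and 2 near 0.

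Among the other receptors, FGFR1 appeared later than FGFR4. It was positive in 2.13% of morula, 4.17% of ICM and 0 of 28 TE cells (up to 10.7%), then in 36% of LB EPI, 30.6% of LB HYPO, 79.2% of Sph EPI and 66.7% of Sph HYPO cells. Its mean was 12 TPM in Sph EPI against 4.60 in LB EPI, but the comparison of these groups did not call it. The 7 labels differed (adjusted p = 0.000343). FGFR3 was positive in 16.7% of Sph HYPO cells and in 2.78% or fewer elsewhere (adjusted p = 0.0350). It had only 16 counts over all cells, and 2 of the 3 Sph HYPO embryos were at 0, with the highest at a log2(CPM + 1) of 0.57. KLB, the co-receptor for FGF19, was found in every label, from 7.14% of TE cells to 47.2% of LB HYPO cells with a mean of 26.8 TPM, and did not pass the test among labels (adjusted p = 0.606).

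ETV1, a PEA3-group ETS factor that responds to ERK, was found in nearly every epiblast cell. It was positive in 24 of 25 LB EPI cells (96.0%, 79.6 to 99.9) and 47 of 48 Sph EPI cells (97.9%, 88.9 to 99.9), with means of 64.4 and 61 TPM. In EB ICM 15 of 24 cells were positive (62.5%, 40.6 to 81.2, mean 13.6 TPM). The share was 8.51% in morula, 10.7% in EB TE and 8.33% in LB HYPO, and 0 of 12 Sph HYPO cells were positive (up to 25%). The 7 labels differed with an adjusted p of 0.000963.

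The epiblast levels of ETV1 were close between embryos. LB EPI sums stood at 6.79, 7.70, 7.85 and 8.28 in AN, AO, AP and AQ and Sph EPI sums at 8.17, 8.38, 7.93 and 7.91 in C, D, E and F. The SD over embryos was 0.63 in LB EPI and 0.22 in Sph EPI, against 1.23 and 1.04 for FGF19. LB EPI over Sph EPI gave -0.30 ± 0.33 (SE, adjusted p = 0.805).

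In hypoblast ETV1 was at or near 0. LB HYPO had 0.74 in AM, 2.36 in AO and 0 in the other 3 embryos, and Sph HYPO was at 0 counts in all 3. LB EPI exceeded LB HYPO by 7.54 ± 1.31 (SE, adjusted p = 0.0105, 186-fold) with no overlap, and the call held with each embryo left out. With the embryo as a block the log2 fold change was 8.97 and the adjusted p 0.102, and the first and last pools gave 8.08 (adjusted p = 0.0200) and 6.51 (0.0894). The 29037 Sph EPI counts were at least 2142-fold higher than Sph HYPO (adjusted p = 0.000639, and 0.00687 with the block), with no overlap. Both sets of pools passed (adjusted p = 0.00659 and 0.000497), whereas a fit on all 7 labels did not (0.121).

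The inner cell mass already carried ETV1. Its lowest, median and highest log2(CPM + 1) over 7 embryos were 3.22, 6.37 and 6.94, while 6 of 8 morulae and 7 of 10 TE sums were at 0. ICM over LB HYPO came to 6.04 ± 1.48 (SE, adjusted p = 0.0436, 65.9-fold) with no overlap, where 3.78% of genes did not overlap. That call was lost when any of 10 of the 12 embryos was left out (all but ICM AF and LB HYPO AO), with adjusted p from 0.0564 to 0.112, and in both sets of pools (log2 fold change 7.25, adjusted p = 0.0872, and 4.15, adjusted p = 0.483). ICM and LB EPI sums overlapped (-1.69 ± 0.63 SE, adjusted p = 0.152), as did morula and ICM (-4.53 ± 1.57 SE, adjusted p = 0.107).

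ICM against trophectoderm gave an ETV1 log2 fold change of 3.36 ± 1.57 (SE, adjusted p = 0.237). All but 1 of the ETV1 counts of EB TE came from the E6-ER cell (250 counts) and embryo AB (215 counts). Without the 2 TE cells poor in trophectoderm markers the value was 5.65 (adjusted p = 0.0791). With the embryo as a block, which leaves the TE of E6-ER and AB out of the contrast because these embryos have no ICM sum, ETV1 passed at 10.80 (adjusted p = 0.0101).

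**Figure D3:**
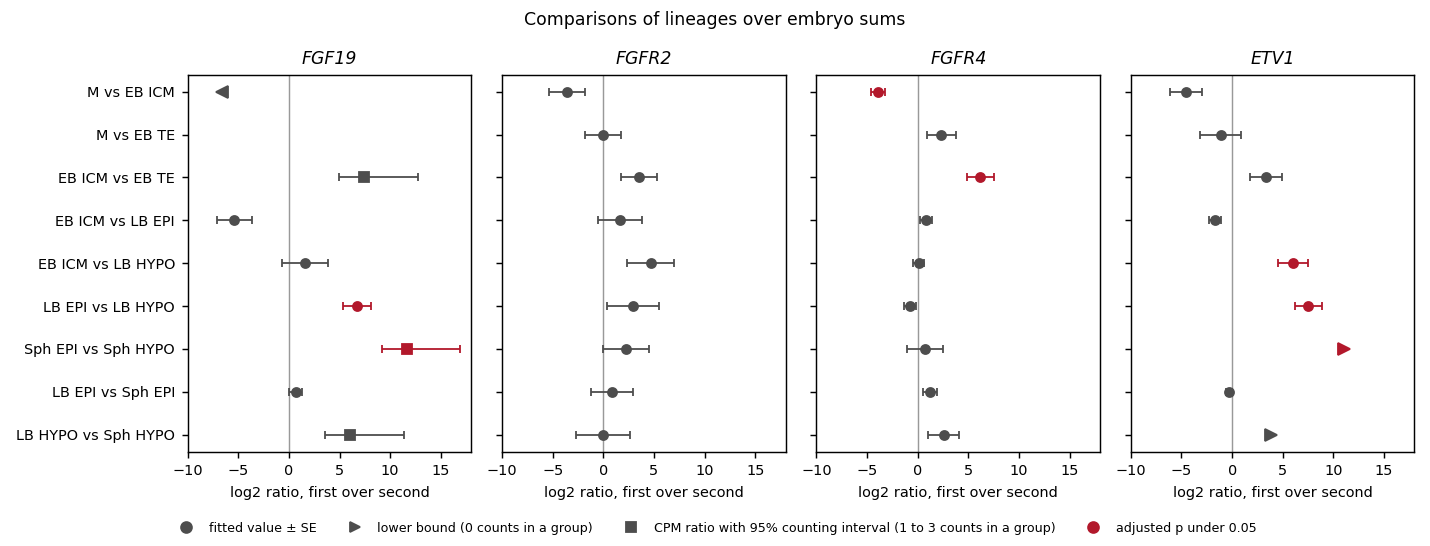
Log2 ratio of the first over the second lineage in 9 comparisons of embryo sums, as the fitted value ± SE, as a lower bound where 1 group has 0 counts, or as a CPM ratio with its 95% counting interval where 1 group has 1 to 3 counts (FGF19 in M against EB TE, with 1 count in all, is not drawn). Red marks the 7 results of FGF19, FGFR4 and ETV1 with an adjusted p under 0.05.

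Cell by cell, the following pairs of genes were found together about as often as their separate shares give. Where a gene is in nearly every cell, the overlap is close to fixed by the shares. Such counts cannot show whether the genes of a pair go together. FGF19 and ETV1 were both positive in 21 of 25 LB EPI cells and 42 of 48 Sph EPI cells, where the shares multiplied give 21.1 and 42.1. Ligand and receptor, FGF19 and FGFR4, were both positive in 17 LB EPI and 31 Sph EPI cells (17.6 and 30.5 from the shares), and in all 6 of the LB HYPO cells with FGF19 (5.83). In LB HYPO, where 35 of 36 cells had FGFR4 and 3 had ETV1, 17 cells had FGFR4 together with KLB.

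In EB ICM, all 15 cells with ETV1 also had FGFR4 (14.4 from the shares), and 12 of the 13 with FGFR2 did (12.5). FGFR4 was in nearly every ICM cell, so these overlaps were close to fixed as well. Every ICM, LB EPI and Sph EPI cell was positive for at least 1 of the 4 genes. None was positive in 27 of 47 morula cells, 21 of 28 TE cells and 4 of 12 Sph HYPO cells. No transcript of FGFR1 to FGFR4 above 1 TPM was found in 27 morula and 22 TE cells, against 0 of 24 in ICM and 1 of 36 in LB HYPO.

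Lineages could also be compared within an embryo. In 7 of 7 early blastocysts the ICM sum was above the TE sum for FGFR4, by 5.41 to 8.36 on the log2(CPM + 1) scale (median 7.51), and for ETV1, by 3.22 to 6.94 (median 6.33). For FGFR2 this was so in 4 of 7 and for FGF19 in 3, with 1 the other way and the rest at 0 in both. The TE sums of AB, AH and E6-ER have no ICM sum beside them and are not among the 7. AB and E6-ER held nearly all FGFR4 and ETV1 counts of EB TE. EPI was above HYPO in 3 of 3 late blastocysts for FGF19 (4.56 to 7.46) and ETV1 (5.34 to 7.85), and in 3 of 3 spherical embryos for FGF19 (5.52 to 7.85) and ETV1 (7.91 to 8.17). FGFR4 was higher in EPI in 1 late blastocyst and in HYPO in 2, and the reverse in spherical embryos.

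**Figure D4:**
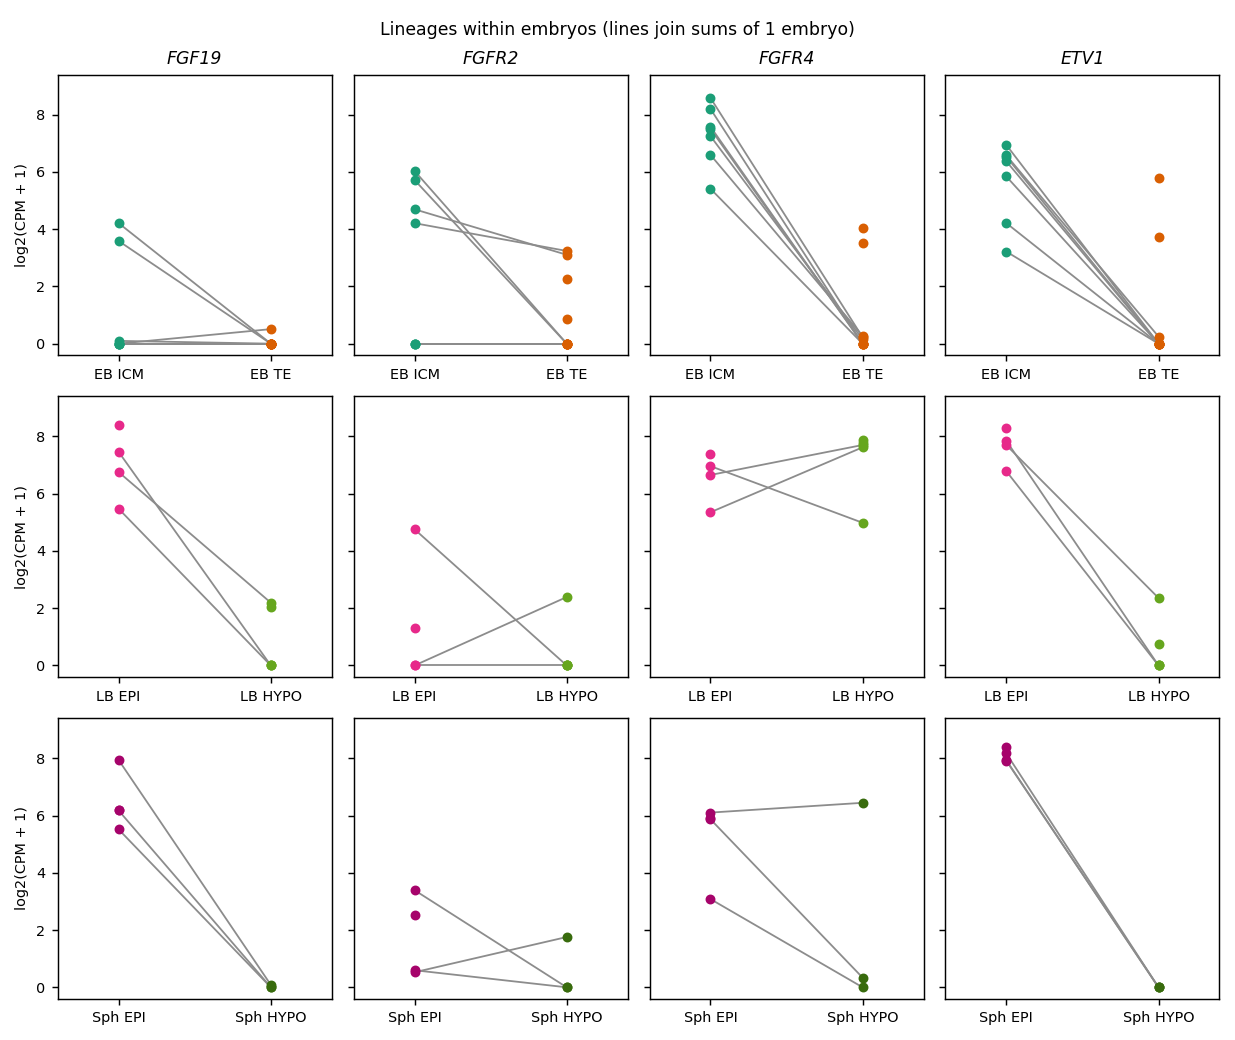
Log2(CPM + 1) of the 2 lineages of each embryo at the early blastocyst, late blastocyst and spherical stage, with lines joining sums of the same embryo. FGF19 and ETV1 drop from EPI to HYPO along all 6 lines and FGFR4 from ICM to TE along all 7, while FGFR4 lines between EPI and HYPO run both ways.

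Further genes of the pathway were read from a list of 87 symbols, of which 58 had an entry and 53 were tested. Among the 7 labels 22 of the 53 differed (41.5%, beside 37.7% of all genes), so the list as a whole was near the background. Called genes were few and were ligands, receptors, feedback genes or transcription factors: none of the 10 adaptors and none of the 8 RAS and ERK kinases tested was called in any of the 9 comparisons.

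**Figure D5:**
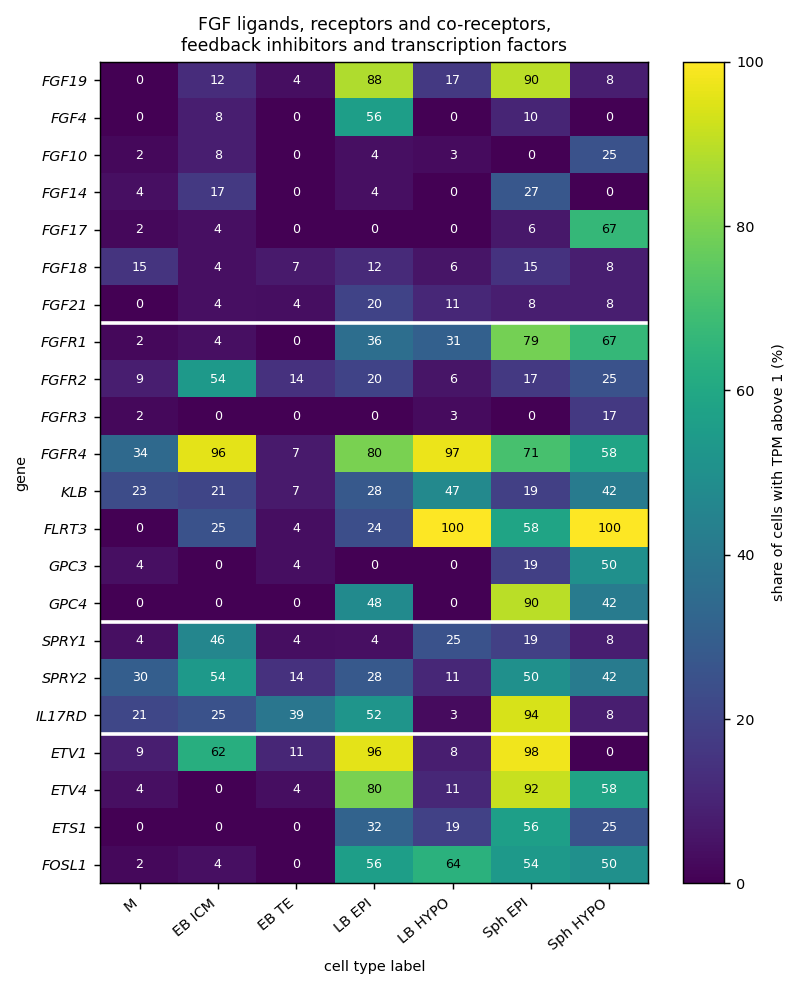
Share of cells above 1 TPM, in percent, for 22 genes of the FGF pathway (rows) in the 7 cell type labels (columns), with lines between ligands, receptors and co-receptors, feedback inhibitors and transcription factors. FGF19, FGFR4, IL17RD, ETV1 and ETV4 are each above 1 TPM in 52.0% or more of the cells of both epiblast groups. FGFR4 and ETV4 are also found in cells of both hypoblast groups, and FLRT3 is in all cells of these groups.

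Other ligands had patterns of their own. FGF4 was positive in 56.0% of LB EPI cells (mean 34.7 TPM), in 10.4% of Sph EPI and 8.33% of ICM cells, and in none of the other 4 groups. FGF17, of the FGF8 subfamily, was positive in 66.7% of Sph HYPO cells with a mean of 244 TPM, although by embryo its mean was 67.8 TPM in C, 0 in E and 348 in F, where 8 of the 12 cells come from. FGF10 was positive in 25% of Sph HYPO, FGF14 in 27.1% of Sph EPI and 16.7% of ICM, and FGF21, another endocrine FGF, in 20% of LB EPI cells. By embryo, FGF21 had a mean log2(CPM + 1) of 1.11 in LB EPI (median 0.06, highest 4.31). In LB HYPO the mean was 1.26 (median 1.05, highest 3.71). Of these ligands, FGF4 (adjusted p = 0.00121), FGF17 (0.00108), FGF10 (0.0197), FGF14 (0.00450) and FGF21 (0.0133) differed among the labels. FGF18, at 4.17 to 14.9% of cells in each label, did not pass (0.993).

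Of the membrane proteins that assist FGF receptors, FLRT3 was found in both hypoblast groups. It was positive in all LB HYPO and all Sph HYPO cells, with means of 514 and 1095 TPM, and was called higher in HYPO than in EPI of both stages (log2 fold change -6.30, adjusted p = 0.0202, and -5.20, adjusted p = 0.00795). With the embryo as a block the adjusted p was 0.0793 in the late blastocyst and 0.0103 in spherical embryos, and in a fit on all labels 0.129 and 0.274. In the late blastocyst it was 0.0521 and 0.0613 without LB EPI embryo AP or AQ, and 0.0905 and 0.0247 in the first and last pools. It was also higher in LB HYPO than in ICM (-6.51, adjusted p = 0.0106) and in ICM than in the morula, with 1493 against 2 counts (CPM ratio 1342, interval 371 to 11092, adjusted p = 0.00824). The FLRT3 calls of LB HYPO against ICM and of ICM against morula did not pass within either set of pools (adjusted p = 0.0593 and 0.127, and 0.117 and 0.166).

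The heparan sulphate proteoglycan GPC4 was at 0 counts in ICM and at 0, 31, 3745 and 917 counts in LB EPI embryos AN, AO, AP and AQ, so that the groups overlapped and AP held 79.8% of the counts. Over the group LB EPI was at least 1726-fold higher (adjusted p = 0.0314). Without AP it was at least 520-fold higher with an adjusted p of 0.133, without ICM AA or LB EPI AQ the adjusted p was 0.0516 and 0.0595, and neither set of pools passed (0.128 and 0.139). The related GPC3 was at 1414, 27 and 938 counts in Sph HYPO embryos C, E and F against 2 in LB HYPO (CPM ratio 3020, adjusted p = 0.0101). The adjusted p was 0.266 without Sph HYPO embryo C, 0.0965 in a fit on all labels, and 0.00265 and 1 in the first and last pools.

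ETV4, the PEA3 relative of ETV1, was positive in 0 of 24 ICM cells, 80.0% of LB EPI cells (mean 42.1 TPM), 91.7% of Sph EPI cells (41.4 TPM) and 58.3% of Sph HYPO cells (13.3 TPM). It rose from ICM to LB EPI by at least 1083-fold (adjusted p = 0.00448), where the test of ETV1 gave 0.152. That call held with each embryo left out and gave 0.0737 and 0.0132 in the first and last pools. The ETS factor ETS1 was higher than in ICM by at least 314-fold in LB EPI and 108-fold in LB HYPO (adjusted p = 0.0222 and 0.0391), calls lost when any of 3 of 11 and any of 10 of 12 embryos was left out and within both sets of pools. For LB HYPO the bound was 68-fold without its embryo AN. The AP-1 factor FOSL1 rose to LB HYPO (ICM over LB HYPO -7.03, adjusted p = 0.0173), with an adjusted p of 0.0690 without LB HYPO embryo AN and of 0.0271 and 0.109 in the first and last pools. ETV1 and ETV4 were both positive in 19 LB EPI and 43 Sph EPI cells and in 0 ICM cells.

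Of the feedback inhibitors, IL17RD, which dampens FGF receptor signalling, was higher in LB EPI than in LB HYPO (8.09, adjusted p = 0.0480) with overlap between embryos. That call was lost when any of 8 of the 9 embryos was left out (adjusted p up to 0.121), with the embryo as a block (0.940), in a fit on all labels (0.0592) and within the last pools (0.448). SPRY1 and SPRY2, inhibitors of RAS and ERK signalling, were positive in 45.8% and 54.2% of ICM cells, and SPRY2 in 50% of Sph EPI cells. Neither passed the test among labels (adjusted p = 0.237 and 0.236).

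Counted over the list, the genes called higher in the first and in the second group are given with the same shares of all genes tested. They were 0 and 2 of 53 for M against ICM (all genes 0.971% and 1.48%) and 1 and 0 for ICM against TE (0.571% and 0.183%). They were 0 and 3 for ICM against LB EPI (1.12% and 1.79%) and 1 and 3 for ICM against LB HYPO (0.937% and 1.16%). EPI against HYPO gave 3 and 1 in the late blastocyst (0.897% and 1.03%) and 2 and 1 in spherical embryos (0.564% and 0.571%), and LB HYPO against Sph HYPO gave 0 and 1 (0.0476% and 0.115%).

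The edgeR test called no list gene for M against TE (0.557% and 0.251% of all genes), where 9 had an unadjusted p under 0.05 and DESeq2 and limma each called 0. Nor did it call any for LB EPI against Sph EPI (0.0951% and 0.0611%), where 4 had an unadjusted p under 0.05, DESeq2 called 1 and limma 0. The median log2 fold change of the list lay between -0.32 (ICM over LB EPI, all genes -0.11) and 0.43 (Sph EPI over HYPO, all genes 0.57), the latter 0.38 with genes at 0 counts set to their bound.

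Over the 41 embryo sums, which share lineages and embryos, the tested genes most like each of the 4 were named by Pearson's r of log2(CPM + 1), as a description. FGF19 was most like SLC10A4 (0.938), RRAGD (0.925), CHRNA3 (0.922), KCNN1 (0.920) and GLI2 (0.901). ETV1 was most like MMP2 (0.874), LPCAT2 (0.857), SALL2 (0.812) and HERC5 (0.808), of which SALL2 is among the epiblast markers used to check the labels. FGFR4 was most like MOV10 (0.732), KLHL13 (0.731), MFGE8 (0.722), ARG2 (0.713) and KIT (0.695). The closest to FGFR2 were CD247 (0.676), HS3ST5 (0.645), MITF (0.606), ARMC2 (0.599) and CUL9 (0.593). Among the 4 genes themselves r was highest for FGF19 with ETV1 (0.772) and lowest for FGF19 with FGFR2 (0.0332), with FGFR4 and ETV1 at 0.572.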

How the data were processed

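The authors trimmed reads with scythe and sickle at default settings, aligned them to Sscrofa10.2 with HISAT2 2.1.0 and known splice sites, kept uniquely mapped reads, counted them on Ensembl 87 genes with HTSeq, removed shallow or mitochondria-rich cells and outliers, and deposited raw counts and TPM per gene and cell, with 16 entries of their own added. Versions are from the study and the submitters' processing notes. The deposited TPM and counts were used as they stand.

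Cells were assigned by GEO's labels. Counts were summed per embryo and lineage, and genes above 1 TPM in at least 3 cells (14721) were fitted with edgeR 4.0.16 (glmQLFit and glmQLFTest, TMM, R 4.3.3), each comparison on the sums of its 2 groups, the difference among labels on all 41, with Benjamini-Hochberg adjustment at 0.05. P-values measure the spread between embryos; whether some shared a sow is not given. The counting floor was 3 counts over the group, with lower bounds computed against it. Tables were handled in Python 3.11.15 with pandas 2.3.3 and scipy 1.17.1, figures with matplotlib 3.10.9, and alternatives with DESeq2 1.42.0 and limma 3.58.1 on mean log2(TPM + 1). The scripts were tested on simulated data.

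Lineages of 1 embryo come from the same animal and so are pairs, taken from the cell identifiers. Over 7489 genes their residuals correlated at a median of 0.0507 (ICM and TE, 7 pairs), 0.0250 (LB, 3 pairs) and 0.0700 (Sph, 3 pairs), against -0.00876, -0.0222 and -0.0474 for other pairs, and 1 pair was above 0.1. The block was an alternative because the study's methods had none.

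The 4 genes, the pathway list and the marker lists were chosen with earlier results of these data known. Text names the 4 genes, the other receptors, KLB, PEA3 relatives, SPRY and DUSP genes, ligands above 1 TPM in 10% of the cells of a label, up to 3 called list genes per direction, and 5 like genes each, of which 1 is not reported here. FGF2, FGF8, ETV5, SPRY4 and DUSP6 are among the listed symbols that matched no entry and were not analysed here. Gene sequences and coordinates were not used here.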

Additional observations from a re-analysis of the deposited data

Results flagged for a closer look

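Of 24 combinations of gene and lineage with 4 to 10 embryos, 4 held an embryo far from the rest by Dixon's criterion. For FGF19 in EB TE and FGFR2 in LB HYPO every other embryo was at 0, so any count in 1 embryo met it. The criterion's rate by chance of about 1 in 20 holds for normally spread values and does not apply to such groups. FGF19 in EB TE was 0.51 on the log2(CPM + 1) scale in embryo AF, from 1 count in 1 cell, and 0 in the other 9 embryos. FGFR2 in LB HYPO was 2.39 in embryo AO, which has 16 cells, and 0 in the other 4. FGFR4 in LB HYPO was 4.98 in embryo AP, which has 2 cells, with the nearest embryo at 7.62. FGFR4 in Sph EPI was 3.08 in embryo E, which has 4 cells, with the nearest at 5.87. No cause was tested.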

How the results depend on the processing

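The 43 results on FGF19, FGFR2, FGFR4 and ETV1 were recomputed under each alternative, 781 values in all. In these, 39 calls were lost, 8 were gained and 27 uncalled values changed sign, while the rest kept their direction and side of the threshold. Cells of 1 lineage in 1 embryo are few, and 6 of the 41 embryo sums held 1 cell. How much of the spread came from embryos, cells or reads was not tested.

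The number of genes called moved most. With DESeq2 it was 1215 for M against ICM (361 by edgeR), 618 for M against TE (119), 442 for ICM against TE (111), 1432 for ICM against LB EPI (428), 1088 for ICM against LB HYPO (309), 1393 for LB EPI against LB HYPO (283), 1446 for Sph EPI against Sph HYPO (167), 850 for LB EPI against Sph EPI (23), 362 for LB HYPO against Sph HYPO (24), 2510 among the 7 labels (5556) and 585 for the difference between stages (6). With limma the first 8 of these were 666, 375, 226, 969, 610, 696, 367 and 97. In the first 4 pools the counts were 38, 20, 39, 123, 201 and 113 for the first 6, then 15 and 37 for the comparisons of stages and 13 for the difference between stages. In the last 4 pools they were 132, 50, 9, 195, 71, 64, 89, 7, 39, 3276 and 0. A fit on all 7 labels called 894 for M against TE, 865 for ICM against TE, 755 for ICM against LB EPI, 170 for LB and 95 for Sph EPI against HYPO. Sums of 2 or more cells gave 241 for M against TE and 3 for the difference between stages. Without cells of less certain embryo M against TE gave 219 and ICM against TE 184, and without the 2 TE cells poor in trophectoderm markers 225 and 205. A stricter filter gave 37 for ICM against TE. LB EPI against Sph EPI gave 41 with DESeq2 size factors, 45 without TMM and 51 without a filter, and the difference between stages 13 and 10 in the latter 2. Leaving out 1 embryo gave 58 to 184 for ICM against TE, 239 to 428 for ICM against LB EPI, 138 to 294 for LB EPI against HYPO, 78 to 583 for Sph EPI against HYPO, 11 to 41 for LB EPI against Sph EPI and 17 to 110 for LB HYPO against Sph HYPO, the last without Sph HYPO embryo F.

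With the replicate block on the embryo, 89 genes were called for ICM against TE, 20 for LB and 82 for Sph EPI against HYPO. Of 12 results on the 4 genes 3 calls changed and no direction did: ETV1 passed for ICM over TE (10.80), and FGF19 (8.31) and ETV1 (8.97) did not pass for LB EPI over HYPO.

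Calls that were lost gave these log2 fold changes. FGFR4, M over ICM, was -3.96 and -3.63 in the first and last pools and -3.84 in the fit on all labels (adjusted p = 0.0612). FGFR4, ICM over TE, was 6.37 with sums of 2 or more cells (adjusted p = 0.0810) and 5.25 in the last pools, and 5.92 to 7.26 with 1 embryo left out. ETV1, ICM over LB HYPO, was 5.50 with sums of 2 or more cells (adjusted p = 0.128), 7.25 and 4.15 in the pools, 5.98 with all labels (adjusted p = 0.113), and 5.74 to 8.15 with 1 embryo left out. FGF19, LB EPI over HYPO, was 6.85 and 6.13 in the pools, 6.86 with all labels (adjusted p = 0.0843), and 6.19 to 7.37 with 1 embryo left out. ETV1, LB EPI over HYPO, was 6.51 in the last pools and 7.65 with all labels (adjusted p = 0.118). For Sph EPI over HYPO the fit on all labels gave 11.25 for FGF19 (adjusted p = 0.0941) and 14.57 for ETV1 (adjusted p = 0.121). FGFR4 among the 7 labels had an adjusted p of 0.0709 in the last pools.

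Other results passed under an alternative. The fit on all labels called FGF19 for M against ICM (adjusted p = 0.00427), ICM against TE (0.0102) and ICM against LB EPI (0.0454, and 0.0385 with limma). ETV1 passed for M against ICM with DESeq2 (0.0378) and limma (0.00909), and FGFR4 for LB HYPO against Sph HYPO without embryo F (0.0126).

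Uncalled values of changed sign were FGFR2, M over TE, at 1.52 (sums of 2 or more cells), 3.10 (last pools) and 0.14 (without the 2 TE cells), and ETV1, M over TE, at 0.71, 0.12 and 1.25 in the same settings and 1.19 without cells of less certain embryo. FGF19 and FGFR4, ICM over LB HYPO, were -0.19 and -0.21 in the last pools, and FGFR4 there -0.14 without ICM embryo AC and -0.15 without LB HYPO embryo AP (up to 0.34 without others). FGFR4, Sph EPI over HYPO, was -0.40 in the first pools. FGFR2 without LB EPI embryo AP was -0.83 for LB EPI over HYPO (up to 9.18 without LB HYPO embryo AO) and -2.87 for LB EPI over Sph EPI (up to 1.84 without others), which was -0.12 with limma. FGFR2, LB HYPO over Sph HYPO, near 0 at -0.03, was 0.15 with DESeq2 size factors, 0.10 without TMM and in the fit on all labels, 0.26 with sums of 2 or more cells and 3.24 and 0.76 in the first and last pools, 0.26 to 0.37 without LB HYPO embryo AL, AM, AN or AP, -5.82 without AO and 6.04 without Sph HYPO embryo F. Its difference between stages was 2.01 in the first pools. The causes were not tested. For the 11 calls on other list genes, alternatives added after the data were seen gave 153 values, of which 49 lost the call and 0 changed sign.

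With DESeq2 size factors the share of calls higher in M against TE was 51.9% in place of 68.9%, and the median change over all genes, on the log2 scale, moved from 0.16 to 0 there and from 0.57 to 0.37 for Sph EPI over HYPO. No direction of a called value changed under these scalings. Shares of positive cells left their intervals in 2 of 28 cases at 5 TPM, 3 of 28 at 1 count, 2 of 28 after thinning each cell to 1000000 counts and 0 of 28 with embryos weighted equally.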
